A study of Homo sapiens with 14 samples.

Results

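DAZL, which encodes a germ cell protein that binds messenger RNA, was followed with 9 further germ cell genes in gliospheres, treated gliospheres and their controls. The 9 genes were DDX4, PIWIL2, TDRD1, MAEL, SYCP3, BRDT, DPPA4, PRAME and BOLL. The 10 genes were taken out of 22465 genes on the array by symbol, and among the transcript clusters whose annotation gave only that symbol, the cluster with the highest mean over 14 arrays stood for the gene. DAZL itself was picked because it was higher in untreated gliospheres than in the control group, so that difference is described here without a test, and so is every other difference of DAZL that uses the gliosphere or the control arrays. The 9 others were chosen by name as germ cell genes. No filter on low values was applied, and all 10 genes were measured.

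The study asked how the secreted factors of mesenchymal stem cells (MSCs) act on glioma stem cells. All 14 arrays came from U87MG ATCC-HTB14, 1 established human glioblastoma cell line, with no engineered allele in any group, so every group shares 1 genetic background. Gliospheres (n = 3) were U87MG cells sorted for the stem cell marker CD133 by flow cytometry and grown as floating spheres in serum-free DMEM/F12 with N2, B27, EGF, bFGF and LIF. BMT (n = 3) and WJT (n = 3) were such gliospheres of passage 13 kept for 7 days in conditioned medium (CM) of MSCs from bone marrow or from Wharton's jelly of the umbilical cord, each from 3 biological samples of MSCs. The 5 control arrays were 2 of negative spheres, the sorted marker-negative population, and 3 of the untreated cell line in culture. The methods describe the cell line as an unsorted monolayer in DMEM/F12 with fetal bovine serum. Between gliospheres and the cell line, sorting, medium and attachment therefore cannot be told apart. The labels call the negative spheres spheroids of cells that are not stem cells, whereas the methods describe that population as one that did not make spheres. The labels number the sphere arrays as biological replicates, but nothing says which cultures or MSC samples they came from, so the p-values measure the spread between these arrays. Levels are given as log2 signal, where a difference of 1 is a doubling.

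Germ cells run a set of genes that other cells of the body keep silent. DAZL belongs to the DAZ family, which binds messenger RNA and promotes its translation while germ cells form and enter meiosis. Small RNAs of the piRNA pathway, loaded on PIWI proteins in a perinuclear granule, silence transposons in the same cells, and the synaptonemal complex holds paired chromosomes together in meiosis. In somatic cells many germ cell promoters are rich in CG dinucleotides and methylated, and tumours express some of the genes again, which are then called cancer-testis antigens.

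The 250 bases before the annotated start are shown for 4 genes, because they run from no CG dinucleotide to a CG-rich window and because DAZL and BOLL, both of the DAZ family, had the same number of CG dinucleotides. The sequences are from RefSeq on GRCh38.p14 and run 5′ to 3′ on the strand of the gene, with CG in capitals. The DAZL window is chr3:16605424-16605673 on the minus strand, that of BOLL chr2:197786207-197786456 on the minus strand, that of SYCP3 chr12:101739463-101739712 on the minus strand, and that of DDX4 chr5:55766635-55766884 on the plus strand. Each is upstream of the first exon.
DAZL: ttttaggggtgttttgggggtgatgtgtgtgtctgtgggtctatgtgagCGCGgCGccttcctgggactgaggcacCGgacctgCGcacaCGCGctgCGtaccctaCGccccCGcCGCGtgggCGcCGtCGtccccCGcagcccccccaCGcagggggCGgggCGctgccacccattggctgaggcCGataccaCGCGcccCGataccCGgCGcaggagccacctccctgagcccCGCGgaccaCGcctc
BOLL: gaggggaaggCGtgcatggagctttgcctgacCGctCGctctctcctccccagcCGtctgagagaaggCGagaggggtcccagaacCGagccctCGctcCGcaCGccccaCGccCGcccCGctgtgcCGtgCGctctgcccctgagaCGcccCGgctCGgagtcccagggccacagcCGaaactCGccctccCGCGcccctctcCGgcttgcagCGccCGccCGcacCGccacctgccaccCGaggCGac
SYCP3: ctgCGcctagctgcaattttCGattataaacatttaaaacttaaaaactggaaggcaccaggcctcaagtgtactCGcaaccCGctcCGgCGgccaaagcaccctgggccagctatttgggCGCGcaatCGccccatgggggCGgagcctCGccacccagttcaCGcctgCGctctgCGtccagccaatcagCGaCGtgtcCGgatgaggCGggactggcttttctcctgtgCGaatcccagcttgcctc
DDX4: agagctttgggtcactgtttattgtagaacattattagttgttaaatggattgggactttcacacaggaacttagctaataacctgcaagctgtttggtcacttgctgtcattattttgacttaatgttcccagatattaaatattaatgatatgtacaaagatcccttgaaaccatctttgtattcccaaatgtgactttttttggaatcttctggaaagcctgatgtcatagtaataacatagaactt

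RefSeq windows were matched for 9 of the 10 genes. DAZL and BOLL each had 28 CG dinucleotides, more than 84.6% of the 27303 genes with a window, where the median was 10. MAEL had 51, SYCP3 had 19, BRDT had 14, TDRD1 had 13, PRAME had 9, DPPA4 had 3 and DDX4 had 0. DAZL has 2 annotated starts, and the window before the upstream one was read. The letters GCGGGA, the core of the site of the repressor E2F6, were found on either strand in 23.4% of all windows and among the 9 genes once each in SYCP3 and BOLL. The letters CACGTG, an E-box that MAX and MGA bind and that reads the same on both strands, were in 6.5% of all windows, at 2 places in TDRD1 and 1 in BRDT. DAZL held neither of them.

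**Figure D1:**
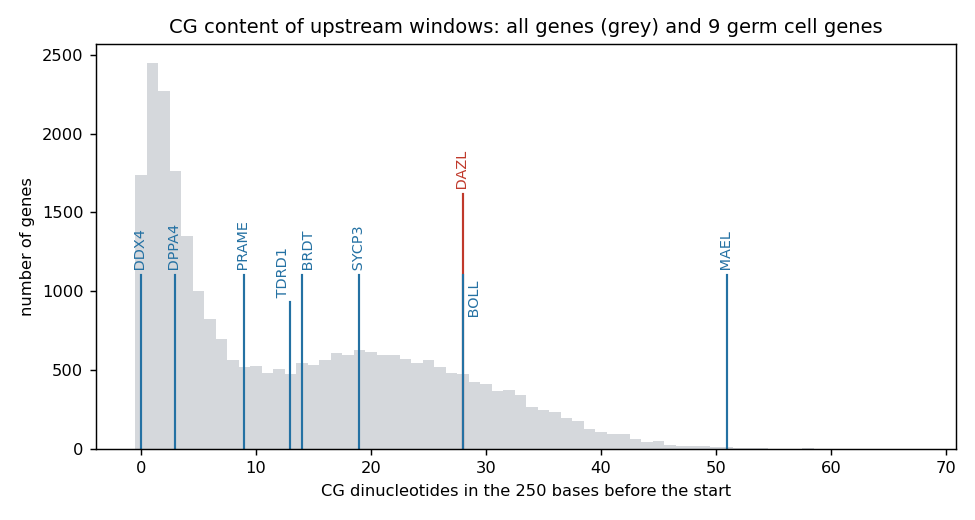
Number of CG dinucleotides (x axis) in the 250 bases before the start of 27303 genes (grey bars, y axis: number of genes), with lines at 9 of the 10 germ cell genes, whose height has no meaning. DAZL and BOLL lie together at 28, above the median of 10, while DDX4 lies at 0 and MAEL at 51.

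DAZL was high on all 9 gliosphere-derived arrays, treated or not, and low on all 5 control arrays. In gliospheres its log2 signal was 6.47, 7.45 and 9.62 (7.85 ± 1.61, SD, n = 3). In BMT it was 6.69, 6.88 and 6.47 (6.68 ± 0.20, SD, n = 3), and in WJT 7.51, 7.34 and 7.33 (7.40 ± 0.10, SD, n = 3). The treated arrays lay close to each other within each group, whereas the gliosphere arrays ran from the level of the lowest treated array to above the highest, with replicate 3 at the top. In negative spheres the signal was 3.81 and 3.51 (3.66 ± 0.21, SD, n = 2), and in the cell line 3.99, 4.02 and 4.14 (4.05 ± 0.08, SD, n = 3). The lowest gliosphere-derived array was 2.33 above the highest control array. Such a gap, of any size, separated the same arrays in this direction at 575 of 67528 transcript clusters (0.851%), and that of DAZL was the 8th largest. Because DAZL was chosen for it, nothing is read from that place.

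The level of DAZL on the control arrays was near what the array gives for genes that are not expressed. As a measure of this, 393 olfactory receptor genes were used, which these cells are not known to need. Their 95th percentile was between 3.72 and 4.08 on 13 arrays and 5.28 on cell line replicate 3, which had a higher background than the others. DAZL was 2.60 to 5.54 above the percentile of its own array on the 9 gliosphere-derived arrays. It was below the percentile on both negative spheres arrays and on cell line replicate 3, and 0.13 and 0.11 above it on cell line replicates 1 and 2. The size of a difference measured from so low a level is uncertain, and whether it was compressed was not tested. In whole cultures, more cells with DAZL transcript and more transcript per cell cannot be told apart.

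DAZL differed from the control group by 3.95 in gliospheres, the 5th largest difference of 22465 genes, and by 3.14 in BMT and WJT as 1 treated group (7.04 ± 0.42, SD, n = 6, against 3.90 ± 0.24, SD, n = 5). The 2 comparisons share the control arrays. Set against each kind of control alone, gliospheres were 4.18 above negative spheres and 3.80 above the cell line. After CM, DAZL was 1.17 lower in BMT and 0.45 lower in WJT than in gliospheres, which share the gliosphere arrays. Replicate 3 of the gliospheres decided these values. Without it the gliosphere mean was 6.96 (n = 2), WJT was 0.43 above it in place of 0.45 below, and BMT was 0.28 below it. This array correlated with gliosphere replicates 1 and 2 at r = 0.964 and 0.972 over all clusters, against 0.983 between those. WJT and BMT did not overlap, WJT being higher by 0.72 (SE 0.56), and DAZL did not pass the test there (limma, adjusted p = 1, unadjusted p = 0.223). That SE pools the spread of all groups, the gliosphere arrays with their SD of 1.61 among them. With only the BMT and WJT arrays in the fit, the adjusted p was 0.249. How many clusters part BMT from WJT without overlap was not counted, so nothing is read from that gap. Negative spheres were at a difference of -0.39 from the cell line, both near background.

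**Figure D2:**
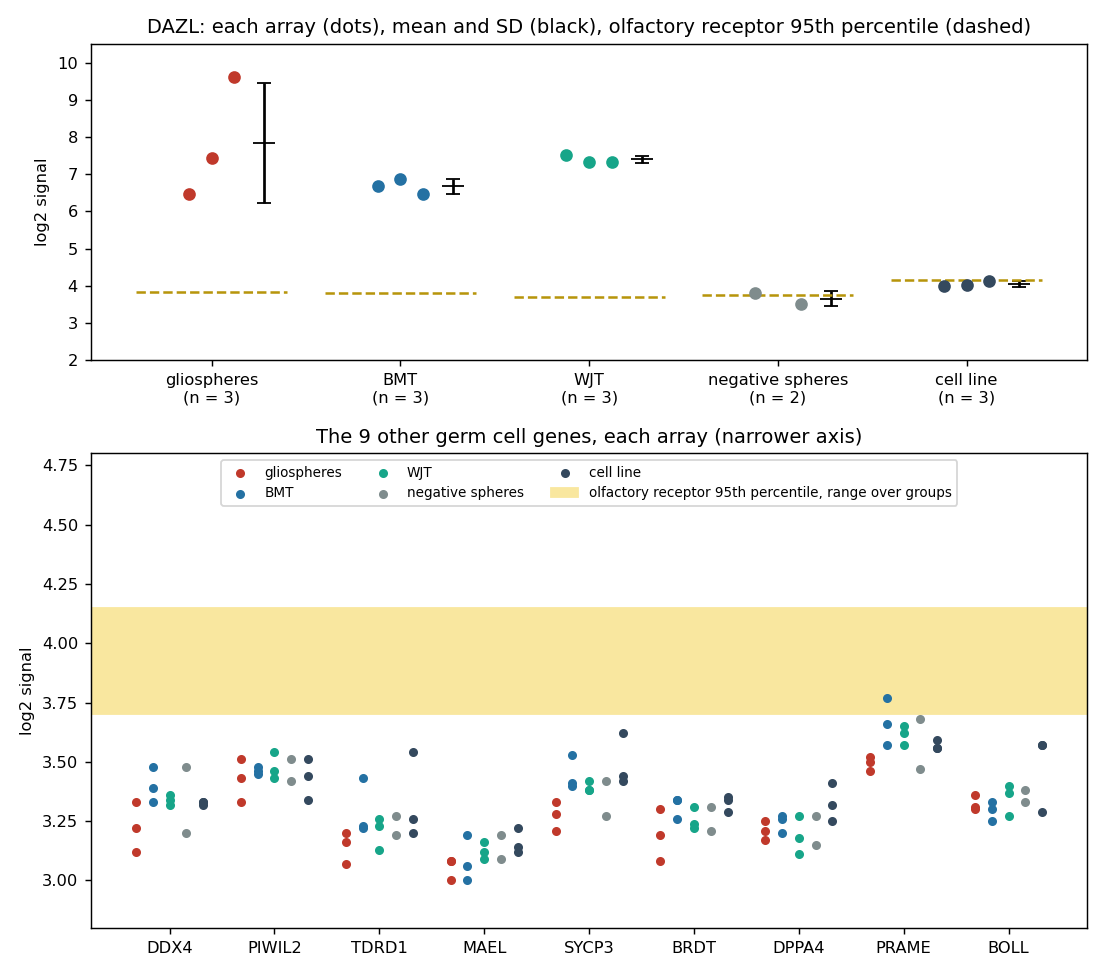
Upper panel: log2 signal of DAZL (y axis) on each array (dots) of the 5 groups (x axis), with mean and SD in black and the 95th percentile of the group means of olfactory receptor genes dashed; lower panel: the 9 other genes (x axis) on a narrower y axis, with dots coloured by group and that percentile's range over groups in yellow. DAZL lies at 6.47 or more on the 9 gliosphere-derived arrays and at 4.14 or less on the 5 others, while all values of the 9 other genes lie between 3.00 and 3.77.

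The other germ cell genes did not follow DAZL. All 126 values of the 9 genes lay between 3.00 and 3.77, and 0 of them were above the olfactory receptor percentile of their own array. Within a gene, the 14 arrays spanned 0.22 to 0.48, against 6.10 for DAZL. The gliosphere-derived arrays overlapped with the control arrays for each of the 9.

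BOLL, the DAZ family member of later spermatogenesis and the nearest relative of DAZL on this list, had 3.30, 3.36 and 3.31 in gliospheres, 3.33 and 3.38 in negative spheres and 3.29, 3.57 and 3.57 in the cell line. The gliosphere arrays thus lay within the range of the controls.

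DDX4, the RNA helicase known as VASA that marks the germ granule, had 3.33, 3.22 and 3.12 in gliospheres and between 3.20 and 3.48 in the 5 controls. PIWIL2 binds piRNAs, and its 14 values ran from 3.33 to 3.54. TDRD1, a Tudor protein that holds PIWI proteins in the granule, had group means of 3.14 in gliospheres, 3.30 in BMT, 3.21 in WJT, 3.23 in negative spheres and 3.34 in the cell line. MAEL, which acts with piRNAs against transposons, had 3.08, 3.08 and 3.00 in gliospheres, just below the 5 controls at 3.09 to 3.22. In DDX4, PIWIL2 and TDRD1 the gliospheres overlapped with the controls.

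SYCP3, a building block of the chromosome axis in meiosis, had 3.21, 3.28 and 3.33 in gliospheres and 3.44, 3.42 and 3.62 in the cell line, so that gliospheres were below the cell line. That difference of -0.22 had an unadjusted p of 0.0208 and an adjusted p of 0.328 (limma). BRDT, the bromodomain protein of spermatocytes and spermatids, ran from 3.08 to 3.35.

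DPPA4, a nuclear protein of pluripotent cells and early germ cells, ran from 3.11 to 3.41. PRAME, a cancer-testis antigen that represses retinoic acid receptor signalling, had group means of 3.49 in gliospheres, 3.66 in BMT, 3.61 in WJT and 3.57 in each control group. BMT was 0.17 above gliospheres in PRAME, with an unadjusted p of 0.0445 and an adjusted p of 0.579 (limma).

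The tests gave 0 calls among the 9 genes in every comparison (limma, adjusted p below 0.05 over 67528 clusters). In gliospheres versus control, where 0.569% of all clusters were called, all 9 differences were negative, from -0.16 to -0.02 with a median of -0.10. The median of all clusters there was -0.07, the smallest adjusted p was 0.479, and 0 of the 9 had an unadjusted p of 0.05 or less, against 10.9% of all clusters. In treated gliospheres versus control, where 2.57% of clusters were called, the differences ran from -0.11 to 0.07, with a smallest adjusted p of 0.495, and 0 of the 9 reached an unadjusted p of 0.05 (14.5% of clusters). In BMT versus gliospheres 0.00889% of clusters were called, and PRAME was the 1 of the 9 with an unadjusted p of 0.05 or less (8.47% of clusters). In WJT versus gliospheres and WJT versus BMT 0% of clusters were called, with 0 of the 9 at an unadjusted p of 0.05 or less in each (6.01% and 2.98% of clusters). With the control split, 0.145% of clusters were called against negative spheres and 0.342% against the cell line, while an unadjusted p of 0.05 or less was reached by 0 of the 9 in the former (8.18% of clusters) and by SYCP3 alone in the latter (11.9%). Negative spheres versus cell line had 0% called, and 0 of the 9 at an unadjusted p of 0.05 or less (6.7% of clusters). Since all 9 were near background throughout, these differences are between values that may carry no transcript signal.

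**Figure D3:**
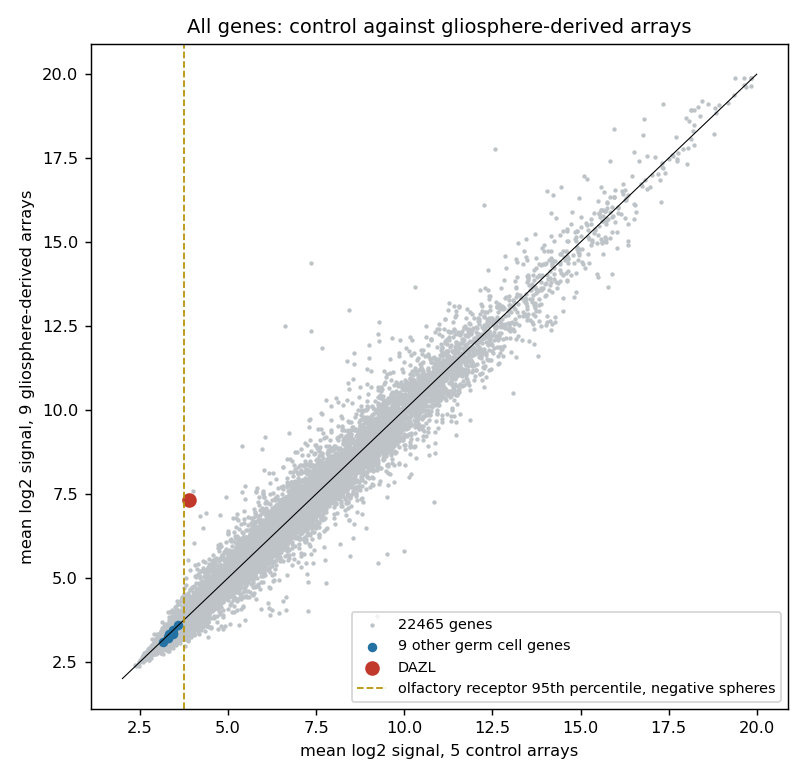
Mean log2 signal of the 9 gliosphere-derived arrays (y axis) against that of the 5 control arrays (x axis) for 22465 genes, with equality as a black line and the olfactory receptor percentile of negative spheres dashed. DAZL (red) lies at 3.90 and 7.31, far above the line, and the 9 other germ cell genes (blue) lie on it at the dim end.

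The wider germ cell programme was examined in 7 gene lists that held 211 measured genes beside the 10. Of these, 142 were near background in every group, that is, with a group mean at or below the 95th percentile of the olfactory receptor group means. In gliospheres versus control 0 of the 211 were called (limma), where 0.429% of all clusters were called higher and 0.139% lower. Their median difference was -0.08, against -0.04 over all genes, and single genes ran from -1.58 to 1.07. This count of 0 was not stable. It held under 21 of 27 alternatives, but without cell line replicate 3 KDM5B, KIT, MAGEC1 and ZP1 were called lower, without cell line replicate 2 PRDM1 was, and without gliospheres replicate 3 and cell line replicates 2 and 3 LIN28B was called higher and 5 genes lower. In treated gliospheres versus control 0 were higher and 4 lower, KIT, MAGEC1, MAGEC2 and ZP1, where 1.41% of all clusters were called higher and 1.16% lower. With all 9 gliosphere-derived arrays together, 0 of the 211 were separated from the controls upward, where 0.851% of all clusters were. ELAVL2, KIT, MAGEC1 and ZP1 were separated downward, where 0.62% of all clusters were. The gap was 0.24 in KIT, 0.14 in MAGEC1, 0.10 in ZP1 and 0.00 after rounding in ELAVL2, whose arrays thus barely parted.

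Among 15 DAZ partners and germ cell RNA-binding proteins, 0 were called in gliospheres or treated gliospheres versus control. Over all clusters 0.569% and 2.57% were, so 0 of 15 is near those shares. PUM2, a Pumilio protein that binds DAZL and is common in somatic cells, was 0.56 higher in gliospheres than in control (SE 0.24, limma adjusted p = 0.425), at a level of 10.73. ELAVL2, an RNA-binding protein of neurons and oocytes, was 0.28 lower (adjusted p = 0.251). Relative to control, NANOS1 was 0.05 higher in gliospheres and 0.21 higher in treated gliospheres, and CPEB1, which controls translation in oocytes, was 0.22 lower in treated gliospheres (adjusted p = 0.343).

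In the piRNA pathway, 19 of 23 measured genes were near background in every group. In gliospheres and treated gliospheres versus control 0 were called, where 0.569% and 2.57% of all clusters were. ASZ1 was 0.22 lower in gliospheres than in control (limma adjusted p = 0.371), and TDRD3, a Tudor protein of most tissues, was 0.35 above control in treated gliospheres (adjusted p = 0.278). TDRD3 was called higher there without cell line replicate 2, and without gliospheres replicate 3 and cell line replicates 2 and 3. In the synaptonemal complex and meiosis list, 24 of 34 were near background, and 0 were called in these comparisons, against the same shares of all clusters. SYCE3, of the central element of the complex, was 0.27 above control in treated gliospheres (adjusted p = 0.0747), with 3.40 in negative spheres and 3.32 in the cell line, 3.37 in gliospheres, 3.60 in BMT and 3.64 in WJT. DMC1, the recombinase of meiosis, had 5.58 in gliospheres, 5.31 in negative spheres and 5.11 in the cell line, and was 0.38 above control in treated gliospheres (adjusted p = 0.287).

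The primordial germ cell and pluripotency list had 16 of 21 genes near background in every group. KIT, the receptor that primordial germ cells need to migrate and survive, had treated arrays at 3.14 to 3.30, gliospheres at 3.10 to 3.20 and controls at 3.54 to 4.14. Its difference from control was -0.57 in treated gliospheres (SE 0.11, limma adjusted p = 0.0212), whereas BMT and WJT were 0.10 and 0.03 above untreated gliospheres. Its control means were near background too, at 3.80 in negative spheres and 3.77 in the cell line. The olfactory receptor percentiles of these groups were 3.76 and 4.15, so the KIT difference is between values that may carry little transcript signal. The call was lost in 8 of 26 alternatives, those without BMT replicate 1 or 2 or WJT replicate 2 or 3, with quantile normalization or median centring of the arrays, and with either kind of control alone, with adjusted p up to 0.149. PRDM1, which specifies primordial germ cells in mouse and human, was 0.80 lower in gliospheres than in control (adjusted p = 0.155) and 0.57 lower in treated gliospheres than in control (adjusted p = 0.143). NANOG had group means of 3.04 to 3.24 and POU5F1 of 3.54 to 3.66.

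Of 54 measured cancer-testis antigens, 32 were near background in every group. MAGEC1 had 3.66, 3.54 and 3.38 in gliospheres and 3.48 to 3.64 in the treated arrays, against 4.65 and 4.90 in negative spheres and 5.20, 5.40 and 3.79 in the cell line. It ran opposite to DAZL, being low on every gliosphere-derived array, and cell line replicate 3 was its lowest control. Its difference from control was -1.21 in treated gliospheres (SE 0.23, limma adjusted p = 0.0163) and -1.26 in untreated ones, which did not pass (adjusted p = 0.0714), and BMT and WJT were 0.07 and 0.03 above untreated gliospheres. MAGEC2 had group means of 6.95 in negative spheres, 6.16 in the cell line, 5.97 in gliospheres, 5.55 in BMT and 5.27 in WJT, with a difference from control of -1.06 in treated gliospheres (SE 0.25, adjusted p = 0.0491). Against untreated gliospheres, BMT differed by -0.42 and WJT by -0.69 (adjusted p = 0.779 and 0.875). Its call was lost without any 1 array other than gliospheres replicate 2 or 3, or cell line replicate 3, with adjusted p up to 0.118. IL13RA2, a decoy receptor for interleukin 13 that glioblastomas often express, was bright in every group (12.15 in gliospheres, 11.63 in negative spheres, 10.71 in the cell line) and at 1.07 had the largest positive difference of the 7 lists in gliospheres versus control, which was not called. The largest negative ones were those of NUF2 (-1.58, adjusted p = 0.396) and PBK (-1.36, adjusted p = 0.473), which both act in mitosis and are expressed in dividing somatic cells too.

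Among 42 spermatid and sperm genes, 29 were near background. In gliospheres and treated gliospheres versus control 0 of the 42 were called, where 0.569% and 2.57% of all clusters were. Of 22 oocyte genes, 17 were near background. ZP1, of the egg coat, had treated arrays at 3.82 to 3.89, gliospheres at 3.76 to 4.08 and controls at 4.18 to 4.61, a difference from control of -0.53 in treated gliospheres (SE 0.09, limma adjusted p = 0.00722). Its call was lost with quantile normalization (adjusted p = 0.0817), with median centring (adjusted p = 0.0701) and with negative spheres alone as control (adjusted p = 0.109).

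**Figure D4:**
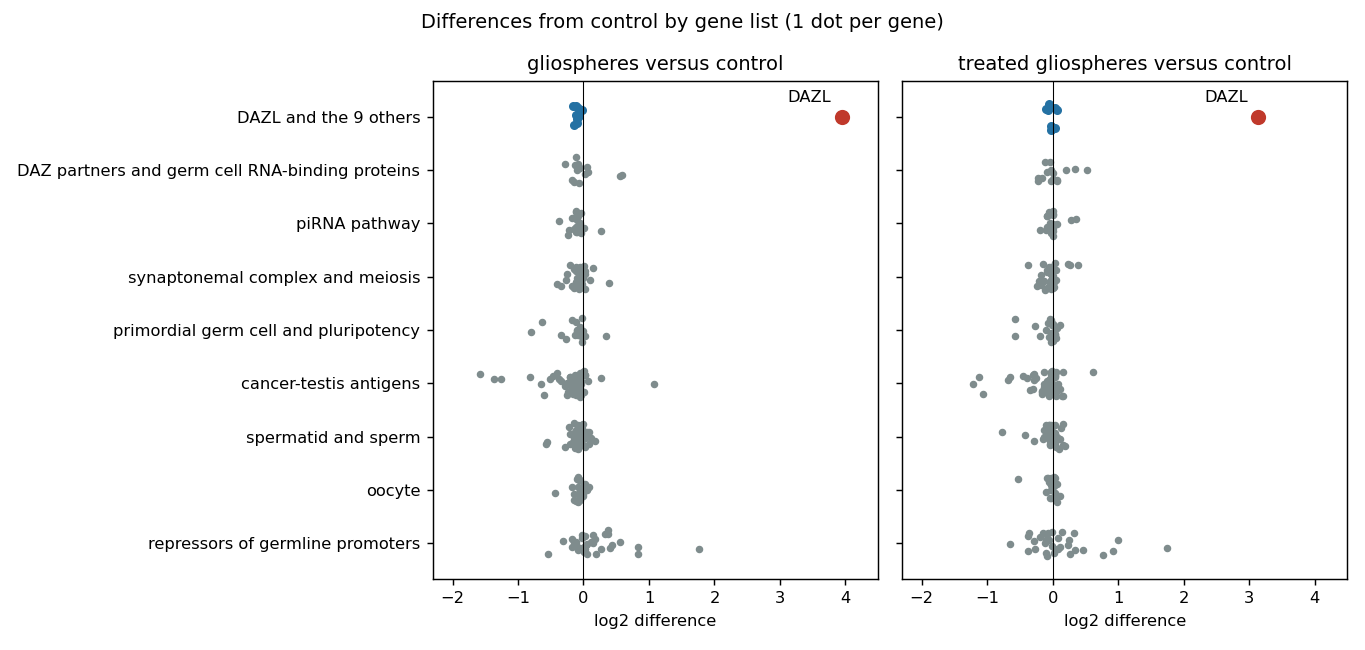
Log2 difference from control (x axis) of gliospheres (left) and treated gliospheres (right) for each measured gene (1 dot) of the gene lists (y axis), with DAZL in red and the 9 other genes in blue. DAZL stands alone at 3.95 and 3.14, and the genes of the 7 germ cell lists run from -1.58 to 1.07 on the left and from -1.21 to 0.62 on the right.

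Regulators of germ cell promoters, most of them repressors in somatic cells, were, unlike the germ cell genes, mostly expressed. In gliospheres 32 of 34 measured genes of this list were above background. The list also held TET1, TET2 and TET3, which act against DNA methylation, and WDR5, which also works in activating complexes. Its counts and medians are therefore not of repressors alone. In gliospheres versus control 1 of 34 was called higher and 0 lower, where 0.429% and 0.139% of all clusters were. In treated gliospheres versus control 5 were called higher and 0 lower, where 1.41% and 1.16% of all clusters were (limma). In BMT and WJT versus gliospheres 0 were called, where 0.00889% and 0% of all clusters were. There 1 of 34 had an unadjusted p of 0.05 or less in each, against 8.47% and 6.01% of all clusters. Only 19049 of 67528 clusters reached log2 5 on 3 arrays, so these shares are mostly of dim clusters, unlike this list. The share among expressed clusters was not computed, so no excess of calls is read here. The medians of the list in gliospheres and treated gliospheres versus control were 0.04 and -0.01, close to those of all genes at -0.04 and -0.02. ATF7IP, the partner that stabilises the histone methyltransferase SETDB1, had 11.22, 10.67 and 11.61 in gliospheres, 10.67 to 11.93 in treated arrays, 9.14 and 9.87 in negative spheres and 9.60, 9.56 and 8.89 in the cell line, with no overlap. Relative to the same controls it was 1.76 higher in gliospheres (SE 0.31, limma adjusted p = 0.029) and 1.74 higher in treated gliospheres (SE 0.25, adjusted p = 0.00423), while BMT and WJT differed from gliospheres by -0.31 and 0.28. The first of these calls was lost without gliospheres replicate 1 or 3, each of the BMT replicates, negative spheres replicate 1 or cell line replicate 1, with adjusted p up to 0.0955.

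SETDB1 itself had 4.96 in gliospheres, 5.26 in negative spheres and 5.29 in the cell line. Treated gliospheres were above control by 1.00 in TASOR of the HUSH silencing complex (adjusted p = 0.0214), 0.76 in MORC2, which works with HUSH (adjusted p = 0.0268), 0.92 in the histone demethylase KDM1A (adjusted p = 0.0212) and 0.26 in the DNA methyltransferase DNMT3A (adjusted p = 0.0487, limma in each case). Untreated gliospheres were above the same controls by 0.83, 0.56, 0.44 and 0.14 in these genes, which did not pass (adjusted p = 0.182 to 0.557). Left-out arrays changed how many of the list were called in treated gliospheres versus control, from 5 down to 1, the latter without BMT replicate 1, WJT replicate 2 or WJT replicate 3. DNMT1, which maintains DNA methylation, had 9.96 in gliospheres, 9.71 in BMT, 9.96 in WJT, 9.80 in negative spheres and 9.46 in the cell line. E2F6, which binds germ cell promoters, ran from 5.55 to 5.81 over the group means, and neither gene was called.

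The measured genes nearest to DAZL on chromosome 3 were at most 1.03 apart in their group means. In the RefSeq order of genes, LINC00690, the adjacent one on the side of lower coordinates, was at 3.04 in gliospheres, 3.15 in negative spheres and 2.96 in the cell line. RFTN1, the nearest measured protein-coding gene on that side and 4 genes away, had 5.90, 6.25 and 6.31 in gliospheres, BMT and WJT and 5.50 and 5.81 in the controls. On the other side PLCL2-AS1, 7 genes away, had 3.08 in gliospheres and 3.66 in the cell line. TBC1D5, 8 genes away, had 7.75, 7.70 and 7.84 in gliospheres, BMT and WJT and 7.39 and 6.81 in the controls. In RFTN1 and TBC1D5 the gliosphere-derived means were thus above both control means, as in DAZL, at a smaller size.

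The likeness of other genes to DAZL was measured by correlation. Pearson's r with DAZL was computed for 2226 genes that spanned at least 2 over the arrays and reached at least 6, over 14 arrays that share 1 cell line and fall into a high and a low set, so r over all of them mostly restates that split. It was 0.957 for TMEM171, 0.941 for PYGB, the brain form of glycogen phosphorylase, 0.937 for DOCK4, 0.935 for PLCB1, 0.933 for AKR1C1 and 0.932 for CTBS, a lysosomal enzyme of glycoprotein breakdown. ARRB1, PAQR5, ANKFN1 and AKR1C2 followed at 0.919 to 0.931. AKR1C1 and AKR1C2 are near-identical paralogs whose probes may share signal. The germ cell genes took little part in this, since 13 of the 211 list genes and 0 of the 9 others met the range and level asked for. Within the 9 gliosphere-derived arrays, r ran from 0.652 to 0.959, and without gliospheres replicate 3 it was 0.858 for CTBS and 0.766 for PYGB but -0.188 for DOCK4 and -0.043 for PLCB1.

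CTBS, which kept the highest r, had 7.74, 8.34 and 9.37 in gliospheres, 7.98, 8.12 and 8.16 in BMT, 8.47, 8.54 and 8.32 in WJT and 6.69 to 7.51 in the controls, so like DAZL it was highest on gliospheres replicate 3 and higher in WJT than in BMT. The most opposite genes were CLEC2B (r = -0.943), PDK1, which blocks pyruvate dehydrogenase (-0.937), CHD1L (-0.935), PLPP4 (-0.934) and BNIP3P1 (-0.931). CLEC2B, a lectin, had 8.34, 8.63 and 6.38 in gliospheres against 9.82 and 10.01 in negative spheres.

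**Figure D5:**
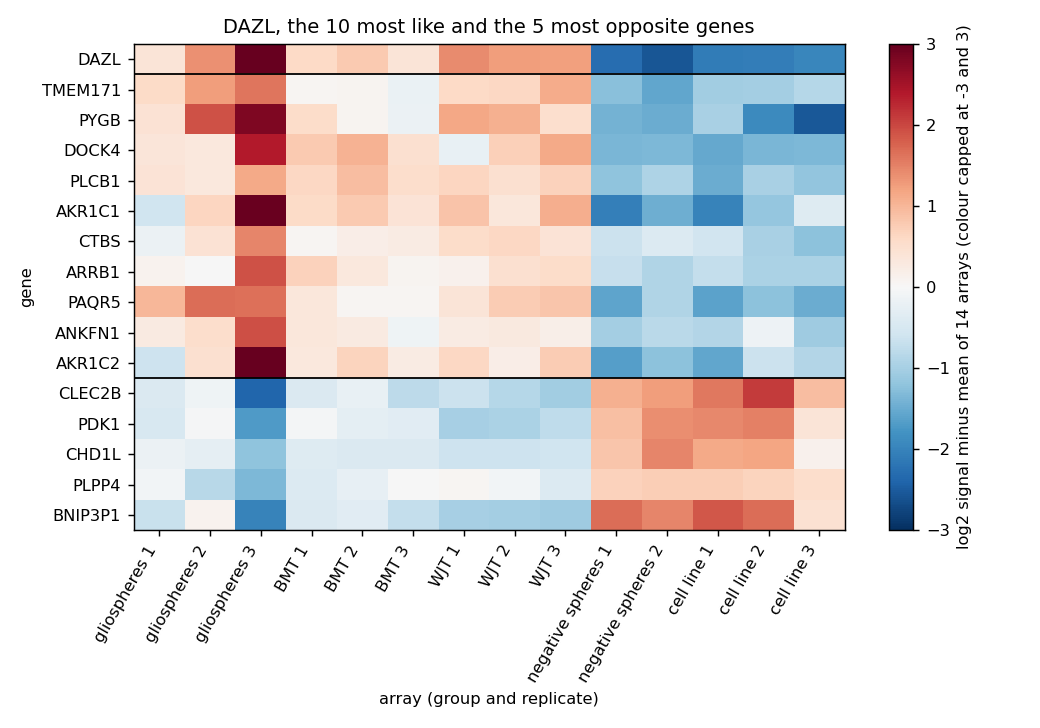
Log2 signal minus the mean of the 14 arrays (colour, capped at the ends of the scale) for DAZL, the 10 most like and the 5 most opposite genes (y axis) on each array (x axis, group and replicate). The 9 gliosphere-derived and the 5 control arrays separate in every gene shown except AKR1C1, and gliospheres replicate 3 is the highest array in DAZL (9.62) and the lowest in CLEC2B (6.38).

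The labelled cell types were checked against markers. The transcript of PROM1, which encodes CD133, by which the gliospheres had been sorted, had group means of 3.45 to 3.59 and was near background in every group. So were SOX2, SOX1, MSI1, OLIG1, OLIG3, GFAP and S100B, with PROM1 8 of 13 neural stem cell and glial lineage markers. The paper counted GFAP and the OLIG genes as markers of differentiated cells, so the 8 are not all stem cell markers. The sort measured CD133 protein, and the paper found that protein in its gliospheres by flow cytometry and by immunostaining. Its PCR array listed PROM1 as higher in gliospheres than in control, without a significant p-value. The array signal of PROM1 therefore does not show that the marker was absent. VIM was between 15.66 and 15.86 and PAX6 between 5.48 and 6.10. Of 17 genes of gonadal somatic cells, 12 were near background in every group, among them the Sertoli and granulosa cell receptor FSHR (3.17 to 3.34), STAR (3.30 to 3.41) and NR5A1 (3.21 to 3.32). In gliospheres versus control 0 of the 17 were called (limma), against 0.569% of all clusters. There 1 of the 17 had an unadjusted p of 0.05 or less, against 10.9% of all clusters. SOX9, of Sertoli cells and also of glia, was 0.91 above control in gliospheres (adjusted p = 0.484) and the aromatase CYP19A1 0.44 (adjusted p = 0.0678). The mean level of the 17 genes was 3.69 to 3.81 on gliosphere arrays, 3.71 to 3.79 in BMT, 3.72 to 3.76 in WJT, 3.66 to 3.77 in negative spheres and 3.71 to 3.79 in the cell line. Of 13 MSC markers, THY1 was near background in every group (3.24 to 3.48) and the others were not. None of the 13 was called in gliospheres versus control (limma), where 0.569% of all clusters were. An unadjusted p of 0.05 or less was reached by 5 of the 13, 2 higher and 3 lower, against 10.9% of all clusters. Differences ran from -1.75 in LUM to 2.05 in PDGFRA. In treated gliospheres versus control, where 2.57% of all clusters were called, NT5E was the 1 of the 13 called (1.63, SE 0.34, limma adjusted p = 0.0297). It had 17.36 in negative spheres, 16.36 in the cell line, 17.84 in gliospheres, 18.29 in BMT and 18.48 in WJT. The mean level of the 13 markers was 6.98 to 8.08 on gliosphere arrays, 7.42 to 7.75 in BMT and WJT and 6.78 to 7.88 on control arrays. The part of the gonadal and MSC markers in the results was not tested. Arrays of 1 group correlated over all clusters at r of 0.990 to 0.994 in BMT and WJT and at 0.928 to 0.961 in the cell line.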

How the data were processed

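RNA was hybridised to the GeneChip Human Transcriptome Array 2.0, 1 array per sample. The deposited values are on the log2 scale. Per the study's methods, the authors normalized the raw files by signal space transformation with robust multi-array analysis (SST-RMA) in Transcriptome Analysis Console, which corrects background, normalizes the arrays and summarises probes per cluster. The deposited cluster values did not share 1 distribution, since the median was 3.92 on cell line replicate 3 and 3.58 on WJT replicate 2. Whether differences near background were compressed was not tested. No detection calls or raw intensities were used here. How precise the values are is limited by how few arrays there were.

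The table held 70523 features, of which 67528 transcript clusters were used and 2995 other probe sets were left out. The platform annotation gave 23781 clusters 1 symbol, 1543 several and 42204 none. For a gene with several clusters, the brightest was taken. Array medians lay between 3.58 and 3.92.

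Groups were compared with lmFit and eBayes of limma 3.58.1 (R 4.3.3), on all 14 arrays, in 4 groups with both controls as 1 group, as in the methods, or in 5 groups where the controls were split. P-values were adjusted by the Benjamini-Hochberg method over all clusters and called below 0.05. The procedure was tested on simulated data. Alternatives were other fits, scalings, filters, controls and left-out arrays. Named genes were the 10 germ cell genes, in each list the up to 3 genes of smallest p in gliospheres or treated gliospheres versus control, the 10 most and 5 least correlated with DAZL and its neighbours. Genes named outside this rule, for their role or because they were called (NANOG, POU5F1, IL13RA2, SETDB1, DNMT1, E2F6, MORC2, DNMT3A, NUF2, PBK, LIN28B, KDM5B, DMBT1 and the markers), were chosen with their values seen. The 10 genes and all lists were chosen with earlier results of these data known. Y-linked genes were left out. Promoter windows came from RefSeq (GRCh38.p14). Python 3.11.15 and matplotlib 3.10.9 were used.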

Additional observations from a re-analysis of the deposited data

Results flagged for a closer look

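Within the control group (n = 5) 19 genes named above were checked for an array far from the others, and 2 were found, where chance alone gives about 1 in 20. TDRD1 was highest on cell line replicate 3, at 3.54, with a gap to the next array of 0.782 of the group's range. TASOR was lowest on the same array, at 9.51, with a gap of 0.714 of the range. The 95th percentile of olfactory receptor genes was 5.28 on that array, and the part of its higher background in either value was not tested.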

How the results depend on the processing

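The count of 0 calls among the 9 other germ cell genes held under every alternative run in the 8 comparisons. With clusters required to reach log2 5 on 3 arrays, 19049 remained and none of the 9 was among them, so no count was possible there. The difference of DAZL kept its sign except in WJT versus gliospheres, where it was 0.43 without gliospheres replicate 3 and 0.43 without the 3 arrays that stood apart (that array and cell line replicates 2 and 3). With 1 array left out at a time it ran from -1.14 to 0.43 there, from -1.86 to -0.28 in BMT versus gliospheres, from 3.07 to 4.64 in gliospheres versus control and from 3.05 to 3.20 in treated gliospheres versus control. DAZL in WJT versus BMT ran from 0.61 to 0.82, with adjusted p from 0.249 to 1. Of the list genes called in treated gliospheres versus control, ATF7IP lost its call in 1 of 27 alternatives, MAGEC1 in 2 and ZP1 in 3 of 26, TASOR in 5, KDM1A and MORC2 in 8 and MAGEC2 in 16 of 27, and KIT in 8 and DNMT3A in 21 of 26. Of the 211 germ cell genes, 0 to 5 were called lower in gliospheres versus control over 27 alternatives, and 1 to 6 in treated gliospheres versus control, with at most 1 called higher in each. ATF7IP in gliospheres versus control lost its call in 14 of 27. The cause was not tested. The replicate numbers were not taken to pair the samples across the groups. Over 26 pairs of arrays with the same number the correlation of deviations from the group means had a median of 0.056 (-0.297 to 0.396), and 11 were over 0.1. All 3 pairs between gliospheres and cell line (0.284 to 0.396) and all 3 between BMT and cell line (0.164 to 0.252) were over it, and no other pair of groups with 3 pairs was so throughout. With the replicate number as a block, DAZL was 3.80 above the cell line and 3.87 above control in gliospheres, 3.06 above it in treated gliospheres and 0.72 higher in WJT than in BMT, 0 of the 9 were called (smallest adjusted p against the cell line 0.332), and of the list genes named above ATF7IP in gliospheres, MAGEC2 and DNMT3A lost their calls (adjusted p = 0.0554, 0.0803 and 0.0643). Signal near background, 2 to 3 arrays a group and 1 cell line limit these comparisons.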

Other observations

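Of 22465 genes, DAZL and DMBT1 were the 2 that were near background in both control groups and at least 1 above the olfactory receptor percentile in gliospheres, BMT and WJT, and 0 genes had the opposite pattern. Over all 67528 transcript clusters 9 had the pattern and 1 the opposite, and those beside DAZL and DMBT1 had no gene symbol. The nearest to DAZL had 6.28 in gliospheres, 6.69 in BMT and 6.90 in WJT. DAZL was chosen for values that the pattern uses, so nothing is read from its place. DMBT1, a secreted scavenger receptor protein of epithelia, had 5.79, 4.35 and 4.53 in gliospheres, 5.22, 5.15 and 4.66 in BMT, 4.61, 5.19 and 5.56 in WJT, 3.58 and 3.88 in negative spheres and 3.82, 3.80 and 3.95 in the cell line. The count rests on cell line replicate 3, whose high background raised the percentile of the cell line to 4.15. Without that array, an alternative chosen after seeing the data, the percentile was 3.80, DAZL in the cell line (4.01) was above it, and 0 genes had the pattern, whereas 4 had the opposite one, among them the germ cell gene MAGEC1. The 9 other germ cell genes were near background in every group with and without it.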
